A study of Mus musculus with 6 samples.

Results

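The sarcomere genes described here encode the contractile unit of striated muscle and the proteins that anchor it, and they were followed in infarct tissue of mice with and without Irf3. The members were a list of 36 gene symbols drawn up by function, of which the table of 12969 genes held 33. Those 33 all had a mean of at least 1 RPKM (reads per kb of gene, scaled to depth) over the 6 libraries and were tested. The other 3, Tnni1, Myl4 and Myl7, were not analysed here. Bulk RNA-seq was run on total RNA of infarcts taken 4 days after the left anterior descending coronary artery was tied off for good with a suture, from perfused hearts of male mice about 12 weeks old. One group of 3 libraries came from IRF3-/- mice, which lack the transcription factor throughout the body, and the other group of 3 from wild-type C57BL/6 mice. For the knockouts the sources used here name no strain. Nothing in the labels says whether a library holds 1 animal or several, so p-values here speak only of how these libraries vary. No uninjured or sham-operated heart was part of the comparison, and all 6 libraries share the ligation.

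In the sarcomere, myosin motors of the thick filament pull on actin of the thin filament, and the troponin complex with tropomyosin makes that step depend on calcium. Titin spans from the Z-disc, where thin filaments of neighbouring sarcomeres are crosslinked, to the M-band in the middle. Ventricular muscle of the adult mouse runs mainly on alpha-myosin heavy chain (Myh6) and cardiac actin (Actc1), while beta-myosin heavy chain (Myh7) and skeletal actin (Acta1) are fetal forms that are known to return in stressed myocardium. An infarct at this stage holds dying and surviving cardiomyocytes among macrophages, fibroblasts and vessels. In bulk tissue, fewer cells of a type and less RNA per cell cannot be told apart.

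Irf3, the targeted gene, was at 7.40, 8.74 and 7.68 RPKM in knockout replicates 1 to 3 and at 13.8, 13.9 and 11.6 RPKM in wild-type replicates 1 to 3. The groups did not overlap, and the difference of −0.65 ± 0.18 on the log2(RPKM + 1) scale had a limma adjusted p of 0.344, and Irf3 RNA was detected in all 3 knockout libraries. The 8 interferon-stimulated genes of a list used as a label check were all lower at an adjusted p under 0.05 in limma (median −2.36). Of all tested genes 0.356% were called lower. Isg15, Ifit3 and Irf7 led the list, which was chosen with earlier results of these data known, so the check is not independent of them. The depth came to between 14.8 and 61.9 M reads in genes. Knockout replicate 2 stood apart, with a mean correlation of 0.907 with the other libraries against 0.941 to 0.966 for the rest, and differences that move by over 1.5 times when it is left out are given both ways.

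The 4 sequences printed first are promoter windows of both members of each isoform pair that the results turn on. Each is a RefSeq window of GRCm38.p6 from 250 bases before the annotated start to 50 after it, on the minus strand and written 5′ to 3′. Myh7 has 2 such windows, of which 1 is printed. Capitals mark 3 kinds of match: a CArG box, which binds serum response factor; CATTCC or its reverse complement GGAATG, the core of the M-CAT element bound by TEAD factors; and TATAAA. None of the marked matches overlap.
Acta1, chr8:123894726-123895025: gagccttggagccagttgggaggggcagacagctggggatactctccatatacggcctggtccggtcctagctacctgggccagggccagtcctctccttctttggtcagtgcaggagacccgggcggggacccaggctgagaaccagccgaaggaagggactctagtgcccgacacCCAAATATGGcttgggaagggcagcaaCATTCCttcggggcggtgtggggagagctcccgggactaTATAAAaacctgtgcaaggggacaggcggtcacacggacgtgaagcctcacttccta
Actc1, chr2:114052826-114053125: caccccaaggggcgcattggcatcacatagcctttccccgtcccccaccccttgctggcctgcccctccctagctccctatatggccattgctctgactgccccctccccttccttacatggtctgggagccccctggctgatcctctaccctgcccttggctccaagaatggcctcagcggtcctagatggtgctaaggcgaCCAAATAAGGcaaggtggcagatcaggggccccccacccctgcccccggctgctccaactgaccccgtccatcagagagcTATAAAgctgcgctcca
Myh6, chr14:54966558-54966857: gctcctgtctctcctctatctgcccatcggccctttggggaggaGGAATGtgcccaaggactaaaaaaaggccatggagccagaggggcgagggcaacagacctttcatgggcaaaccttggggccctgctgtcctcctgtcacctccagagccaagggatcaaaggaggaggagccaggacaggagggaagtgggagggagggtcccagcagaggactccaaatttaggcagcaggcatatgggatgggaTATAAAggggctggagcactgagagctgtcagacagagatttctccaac
Myh7, chr14:54994577-54994876: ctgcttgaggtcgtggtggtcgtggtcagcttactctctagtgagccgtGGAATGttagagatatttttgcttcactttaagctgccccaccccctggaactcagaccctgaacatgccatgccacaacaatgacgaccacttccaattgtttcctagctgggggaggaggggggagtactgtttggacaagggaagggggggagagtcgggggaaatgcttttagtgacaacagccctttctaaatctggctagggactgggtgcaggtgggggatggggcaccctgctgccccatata

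The Acta1 and Actc1 windows each carried a CArG box and TATAAA, and Acta1 also carried CATTCC. The printed Myh6 and Myh7 windows had no CArG box, and both had GGAATG near the upstream end of the window. Of the 33 members, 26 had at least 1 window in the RefSeq table, 35 windows in all. Searched on both strands, a CArG box was found in 7 of the 35 member windows and in 1.60% of all 32851 windows. It was present for 6 members, Myl3, Myom1, Actc1, Acta1, Nebl and Ldb3. A MEF2 motif was found in 11.4% of member windows against 3.20% of all windows, CATTCC in 34.3% against 14.7%, and TATAAA in 14.3% against 13.6%. A match describes these letters in this window only.

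Transcripts of the contractile apparatus were abundant in every infarct. The 33 genes together took 4.86%, 8.96% and 5.94% of reads in knockout replicates 1 to 3 and 2.34%, 5.10% and 6.80% in wild-type replicates 1 to 3. The largest single level was that of Actc1, at 2208 to 8089 RPKM over the 6 libraries. Between genotypes 0 of the 33 genes passed an adjusted p of 0.05 in limma, where 0.147% of the 12913 tested genes were called higher and 0.356% lower in the knockout. At an unadjusted p under 0.05, 2 genes were higher (Myh7 and Tcap, against 2.45% of all tested genes) and 3 were lower (Mylpf, Tnni2 and Tnnt3, against 5.96%). The values of 25 members lay above 0 and those of 8 below, where 40.7% of all tested genes lay above 0. The members' median was 0.50 on the log2 scale against −0.09 for all tested genes. Without knockout replicate 2 the median was 0.25, with 0 members called (0.209% of all tested genes higher and 0.541% lower). At an unadjusted p under 0.05 in that fit, 0 members were higher and 1 lower, beside 320 and 699 of 12937 tested genes. Without wild-type replicate 1 it was 0.04, with 18 members above 0. When limma weighted each library by its own spread, which gave knockout replicate 2 a weight of 0.103, 7 members were called higher (Myh7, Myl2, Myl3, Tnni3, Actn2, Tcap and Myoz2) beside 9.36% of all tested genes. The same weights called 3 lower (Tnni2, Tnnt3 and Nebl) beside 13.6%. Knockout replicate 3 and wild-type replicate 2 had weights of 6.36 and 4.40, so these calls rest mostly on those libraries. Under the weights the members' median was 0.11, with 21 members above 0.

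**Figure D1:**
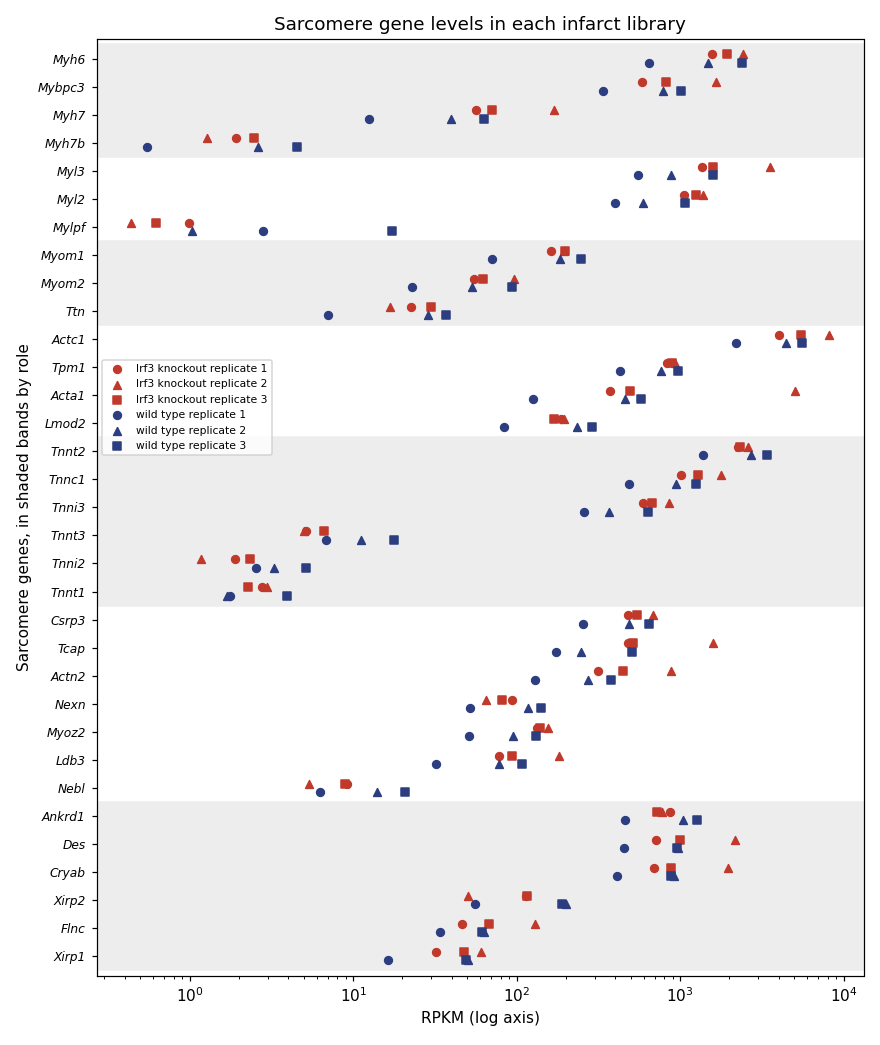
RPKM of the 33 sarcomere genes in each library, on a log axis, with 1 point per library and shaded bands by role. The wild-type points span a median of 2.88-fold within a gene, and 29 of the 33 genes have overlapping groups.

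The wild-type libraries differed widely among themselves. The highest wild-type library was a median of 2.88 times the lowest (1.88 to 16.8 over the members), where the median over all tested genes was 1.32. Wild-type replicate 1 was the lowest wild-type library for 31 of 33 members, all but Mylpf and Tnnt1, and the lowest of all 6 libraries for 27. Wild-type replicate 3 was the highest wild-type library for 28 members. The exceptions were Des, Xirp1, Xirp2, Cryab and Flnc, which were highest in wild-type replicate 2.

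In the knockout the highest of the 3 libraries was a median of 1.77 times the lowest, where the median over all tested genes was 1.65. Knockout replicates 1 and 3 alone had a median ratio of 1.22 between the higher and the lower (1.02 to 1.60). Knockout replicate 2 was the highest of all 6 libraries for 19 members and the lowest for 5. The members' median deviation from each gene's wild-type mean was 0.14, 0.85 and 0.40 (log2) in knockout replicates 1 to 3. In wild-type replicates 1 to 3 it was −0.78, 0.20 and 0.65. The pooled SD of these medians within groups was 0.58, larger than the difference of the group means. Macrophage and monocyte markers (11 of 12 listed were in the table) ran the other way in the libraries that stood out. Their summed level was 5754, 2213 and 4625 RPKM in knockout replicates 1 to 3 and 6146, 3393 and 3370 RPKM in wild-type replicates 1 to 3, and no marker was at 0. None was called by limma, and 1 was lower at an unadjusted p under 0.05 (Ly6c2, −1.38 ± 0.32), beside 5.96% of all tested genes. The values of 1 marker lay above 0 and those of 10 below, where 40.7% of all tested genes lay above 0. Their median was −0.29, and 0.08 without knockout replicate 2. Mrc1 and C1qc, the next by p, were lower in knockout replicate 2 than in any other library. Fibroblast markers (10 of 10) summed to 4805, 3776 and 5267 RPKM against 6686, 6692 and 6059 RPKM, with 0 markers called by limma and 1 lower at an unadjusted p under 0.05, Postn, at −1.27 ± 0.39. Dpt and Pdgfra followed by p. The part of these other cells in the sarcomere values was not tested.

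**Figure D2:**
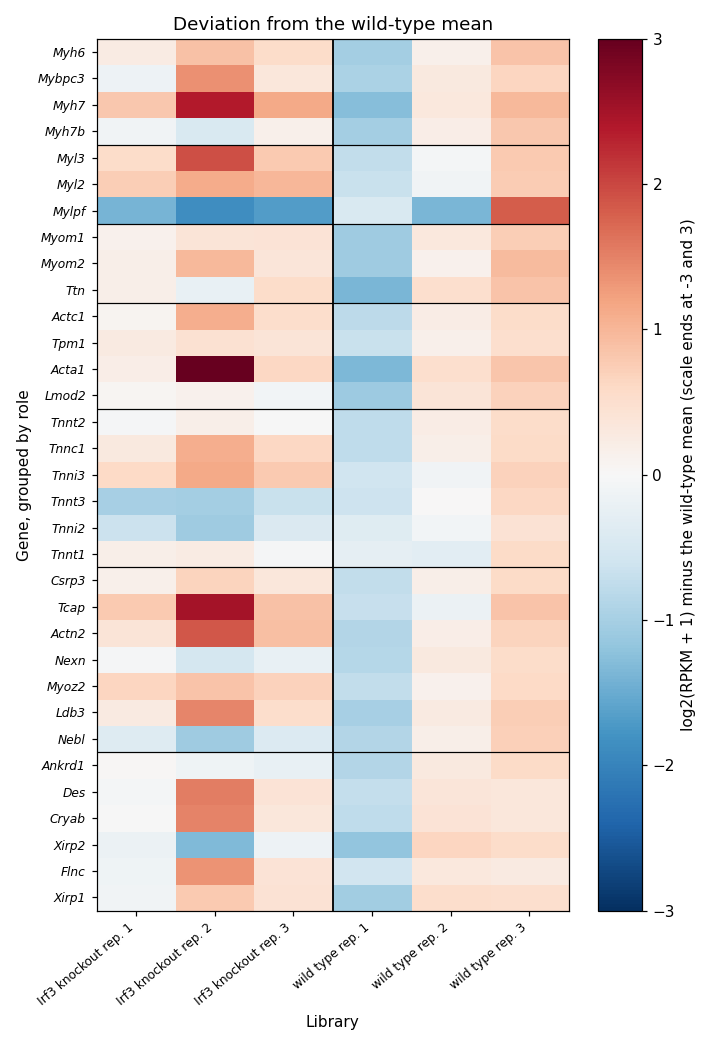
Log2 deviation of each sarcomere gene from its wild-type mean, by library and in role order. The colour scale ends at −3 and 3. Wild-type replicate 1 is the lowest library for 27 of the 33 genes, and knockout replicate 2 is the highest for 19 and the lowest for 5.

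Among the thick filament genes, Myh6 was at 1555, 2424 and 1926 RPKM in the knockout, and the wild type had 644, 1472 and 2393 RPKM. The lowest and the second highest of the 6 values were both wild type, and the difference of 0.56 ± 0.54 (log2 ± SE) had an adjusted p of 0.626 in limma. Myh7 was at 56.2, 170 and 70.9 RPKM in the knockout against 12.5, 39.6 and 63.0 RPKM, a difference of 1.44 ± 0.60 with an unadjusted p of 0.0417 and an adjusted p of 0.556. Only knockout replicate 1 fell inside the wild-type range, and the value was 0.97 without knockout replicate 2 and 0.80 without wild-type replicate 1. Myh7b, a slow-tonic myosin that hosts a microRNA, stayed under 5 RPKM in every library. Mybpc3, the myosin-binding protein that brakes crossbridge cycling, was at 584, 1666 and 820 RPKM against 336, 790 and 1018 RPKM (0.52 ± 0.54, and 0.10 without knockout replicate 2). Reads of the 2 heavy chains are partly interchangeable. Of the 50-base stretches of the Myh6 transcript, 22.6% also occur in another gene, chiefly Myh7, and for Myh7 the share was 28.2%, so the authors' counting could shift reads between them.

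The share of beta-myosin in the heavy chain pool separated the groups. Myh7 made up 3.49%, 6.56% and 3.55% of the summed heavy-chain RPKM (Myh6, Myh7 and Myh7b) in the knockout and 1.90%, 2.61% and 2.56% in the wild type. The transcripts hold 56.2% GC for Myh7 and 56.4% for Myh6. All 3 knockout libraries lay above all 3 wild-type libraries, which for a ratio to Myh6 held for 0.364% of tested genes. The log2 ratio of Myh7 to Myh6 was −4.46 ± 0.54 against −5.38 ± 0.26 (SD, n = 3), a difference of 0.92, and 0.60 without knockout replicate 2. The exact two-sided permutation p was 0.1, the smallest that 3 against 3 allow, and 0.13 after Benjamini-Hochberg adjustment over the 13 ratios run. Relative to the library median of the 28 members with a mean of at least 10 RPKM, Myh7 was again the 1 gene of the 28 higher in every knockout library than in every wild-type library (0.186% of all tested genes), and 10 of the 28 were lower in every one (10.5%).

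**Figure D3:**
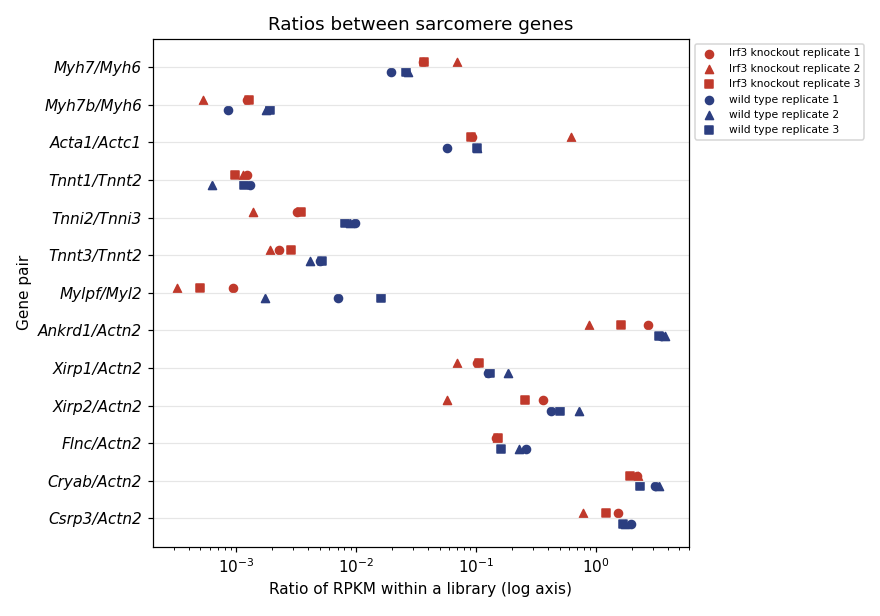
Ratio of the 2 members of each isoform or stress pair within each library, on a log axis. Myh7 over Myh6 is higher in all 3 knockout libraries, and Tnnt3 over Tnnt2, Tnni2 over Tnni3 and Mylpf over Myl2 are lower in all 3.

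Both cardiac heavy chain genes carry a microRNA in an intron, and these 2 are shown because they are read out beside their hosts and differ little in sequence. The mature 3p strands, 22 bases each, share the seed UAAGACG (bases 2 to 8, in capitals) and differ by the substitutions G10A, A16G and C18U, counted from the 5′ end, with the base of miR-208a first. The Mir208a and Mir208b rows were looked up after the data were seen.
mmu-miR-208a-3p, GRCm38.p6, minus strand, chr14:54949072-54949093: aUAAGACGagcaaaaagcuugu
mmu-miR-208b-3p, GRCm38.p6, minus strand, chr14:54975710-54975731: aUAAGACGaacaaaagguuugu

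In GENCODE M21 both hairpins lie inside the host gene on its strand and overlap 0 annotated exons. Reads over them in a total RNA library can therefore come from the hairpin or from unspliced host RNA. Mir208b was at 22.8, 5.03 and 27.9 RPKM in the knockout against 2.75, 38.7 and 57.0 RPKM in the wild type, resting on 26, 7 and 133 and on 4, 62 and 69 reads. Knockout replicate 2, which had the highest Myh7 level, had the lowest Mir208b level of the knockout group. Its Mir208b RPKM was 2.95% of its Myh7 RPKM, against 40.6% and 39.3% in the other knockout libraries and 22.0%, 97.8% and 90.4% in the wild type. Mir208a was at 5.70, 1.33 and 4.48 RPKM against 0, 5.22 and 6.13 RPKM, and the 0 of wild-type replicate 1 allows up to 1.92 RPKM at 3 reads. This floor covers counting error only.

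The ventricular light chains had some of the higher differences without reaching a call. Myl2, the regulatory light chain, was at 1057, 1371 and 1256 RPKM in the knockout against 400, 592 and 1071 RPKM in the wild type (0.95 ± 0.42, limma adjusted p 0.556). Knockout replicate 1 and wild-type replicate 3 alone made the groups overlap. Myl3, the essential light chain, was at 1351, 3542 and 1592 RPKM against 554, 881 and 1594 RPKM, a difference of 1.1 ± 0.54 that was 0.67 without knockout replicate 2. Mylpf, the fast skeletal regulatory light chain, was far less abundant, at 0.99, 0.44 and 0.62 RPKM in the knockout and 2.81, 1.03 and 17.3 RPKM in the wild type. The groups did not overlap (−1.64 ± 0.68, unadjusted p 0.0416, adjusted p 0.556 in limma), but wild-type replicate 3 was 16.8 times wild-type replicate 2. Without wild-type replicate 3 the difference was −0.74.

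Titin, the molecular spring of the sarcomere, differed little between group means. Ttn was at 22.5, 16.9 and 29.7 RPKM in the knockout and 7.04, 28.7 and 36.7 RPKM in the wild type (0.17 ± 0.53, and 0.37 without knockout replicate 2). Myom1, which crosslinks thick filaments at the M-band, was at 163, 195 and 197 RPKM against 70.5, 185 and 249 RPKM, and its relative Myom2 at 54.7, 96.6 and 62.6 RPKM against 22.7, 53.2 and 94.2 RPKM. For all 3 genes the wild-type libraries spanned the knockout ones from both sides except for Myom2 in knockout replicate 2. Without wild-type replicate 1 the values turned to −0.51 for Ttn, −0.22 for Myom1 and −0.03 for Myom2.

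On the thin filament, Actc1 was at 4008, 8089 and 5490 RPKM in the knockout and 2208, 4454 and 5541 RPKM in the wild type (0.57 ± 0.59, and 0.31 without knockout replicate 2). Acta1 was at 370, 5012 and 495 RPKM against 127, 460 and 572 RPKM. That 1 library, knockout replicate 2, was 11.6 times the mean of the other knockout libraries, and the difference of 1.59 ± 0.99 (adjusted p 0.556 in limma) was 0.41 ± 0.63 without it. Acta1 made up 8.45%, 38.3% and 8.28% of the summed Acta1 and Actc1 level in the knockout and 5.42%, 9.37% and 9.36% in the wild type. Its log2 ratio to Actc1 differed by 1.02 (exact permutation p 0.6, adjusted 0.65) and by 0.10 without knockout replicate 2, and the groups overlapped. Tropomyosin (Tpm1) was the steadiest of the group in the knockout, at 825, 931 and 897 RPKM, against 431, 758 and 969 RPKM in the wild type. Lmod2, which sets thin filament length, was at 186, 194 and 169 RPKM against 83.1, 234 and 291 RPKM (0.03 ± 0.44, and −0.01 without knockout replicate 2).

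The cardiac troponins and their fast skeletal counterparts were measured in the same libraries at very different levels. Tnnt2, the cardiac tropomyosin-binding subunit, was at 2256, 2616 and 2316 RPKM in the knockout and 1375, 2708 and 3394 RPKM in the wild type (0.04 ± 0.48, adjusted p 0.970 in limma, and −0.03 without knockout replicate 2). Tnni3, the inhibitory subunit, was at 592, 858 and 673 RPKM against 258, 366 and 639 RPKM, a difference of 0.83 ± 0.39. Tnnc1, the calcium sensor, was at 1008, 1769 and 1280 RPKM against 489, 938 and 1241 RPKM. For Tnni3 and Tnnc1 only knockout replicate 1 lay inside the wild-type range, and for Tnnt2 all 3 knockout libraries did.

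The fast skeletal subunits had lower values in every knockout library than in any wild-type one, without passing the adjusted test. Tnnt3 was at 5.13, 4.97 and 6.63 RPKM in the knockout and 6.85, 11.2 and 17.7 RPKM in the wild type, with no overlap and a difference of −0.90 ± 0.31 (unadjusted p 0.0203, adjusted p 0.523 in limma) that was −0.58 without wild-type replicate 3. Tnni2 was at 1.90, 1.18 and 2.34 RPKM against 2.55, 3.28 and 5.14 RPKM, again with no overlap (−0.71 ± 0.26, unadjusted p 0.0239, adjusted p 0.554). With Mylpf these are the 3 members whose knockout libraries all lay below the wild type, 9.09% of members against 11.8% of all tested genes. After median-of-ratios scaling of the libraries Tnnt3 overlapped. Tnnt1, the slow skeletal form, was at 2.78, 2.96 and 2.27 RPKM against 1.77, 1.70 and 3.96 RPKM.

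Ratios within a library used a pseudocount of 0.1, so they are set beside gene differences at that pseudocount instead of 1. Those were −0.97 for Tnni2, −0.99 for Tnnt3 and −2.36 for Mylpf. Their denominators were at 0.83 for Tnni3, 0.04 for Tnnt2 and 0.95 for Myl2. The log2 ratio of Tnni2 to Tnni3 was lower by 1.80 in the knockout, that of Tnnt3 to Tnnt2 differed by −1.03 and that of Mylpf to Myl2 by −3.31, each with no overlap and an exact permutation p of 0.1 (adjusted 0.13). Tnni2 and Tnnt3 were also lower in every knockout library relative to Myh6 (3.66% of all tested genes), Tnnt2 (2.64%), Tnni3 (23.6%) or Myl2 (32.2%). Of 22 skeletal muscle markers listed, 7 were in the table and tested, 0 were called by limma and 6 had values above 0. At an unadjusted p under 0.05, 2 were higher, beside 2.45% of all tested genes. Ckm and Myot were higher in all 3 knockout libraries than in any wild-type one, beside 6.61% of all tested genes. Both genes also stand on the list of other sarcomere and Z-disc genes given below. Casq1, a calcium buffer of fast muscle, was at 3.69, 12.8 and 7.64 RPKM against 1.95, 3.87 and 4.82 RPKM. Myl1, a light chain of fast muscle, was at 11.5, 23.5 and 13.4 RPKM in the knockout and 7.87, 16.4 and 22.7 RPKM in the wild type. Its groups overlapped, and it was named after its values were seen. Tnni2, Tnnt3 and Mylpf lie on chromosome 7, as Irf3 does, with Tnni3, Tnnt1 and Csrp3. All knockout libraries lay below the wild type for 11.5% of the 869 tested genes of that chromosome and for 11.8% of those elsewhere, with a chromosome found for 88.6% of tested genes. This share covers the whole chromosome and does not describe the region next to Irf3. A link of these genes to the Irf3 locus was not tested.

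At the Z-disc, Actn2, the alpha-actinin that crosslinks actin, was at 313, 873 and 447 RPKM in the knockout and 130, 274 and 377 RPKM in the wild type (1.06 ± 0.50, adjusted p 0.556 in limma). Tcap, the cap that links titin ends, was at 482, 1584 and 512 RPKM against 174, 249 and 507 RPKM, a difference of 1.38 ± 0.56 with an unadjusted p of 0.0378. For both genes 1 knockout library lay inside the wild-type range, and without knockout replicate 2 the values were 0.65 for Actn2 and 0.82 for Tcap. Without wild-type replicate 1 Actn2 was at 0.63. Myoz2, a calcineurin-binding Z-disc protein, was the only member with all knockout libraries above all wild-type ones, at 134, 156 and 140 RPKM against 50.9, 94.4 and 131 RPKM (0.73 ± 0.34, adjusted p 0.556 in limma, and 0.36 without wild-type replicate 1). That is 3.03% of members against 6.61% of all tested genes. After median-of-ratios scaling Myoz2 overlapped too.

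The remaining Z-disc members showed no common direction. Ldb3 was at 78.3, 182 and 93.9 RPKM against 31.9, 78.3 and 108 RPKM (0.76 ± 0.48). Csrp3, a LIM protein of the mechanical stress response, was at 482, 682 and 542 RPKM against 256, 483 and 642 RPKM (0.39 ± 0.39). Nebl, the cardiac relative of nebulin, was at 9.17, 5.33 and 8.97 RPKM against 6.26, 14.0 and 20.8 RPKM (−0.63 ± 0.40), and the actin-binding Nexn at 93.0, 65.3 and 80.8 RPKM against 51.9, 117 and 140 RPKM (−0.26 ± 0.37). Without knockout replicate 2 these 4 differences were 0.40 for Ldb3, 0.25 for Csrp3, −0.41 for Nebl and −0.13 for Nexn. For Nebl knockout replicate 2 was the lowest of all 6 libraries, where for Ldb3 it was the highest.

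**Figure D4:**
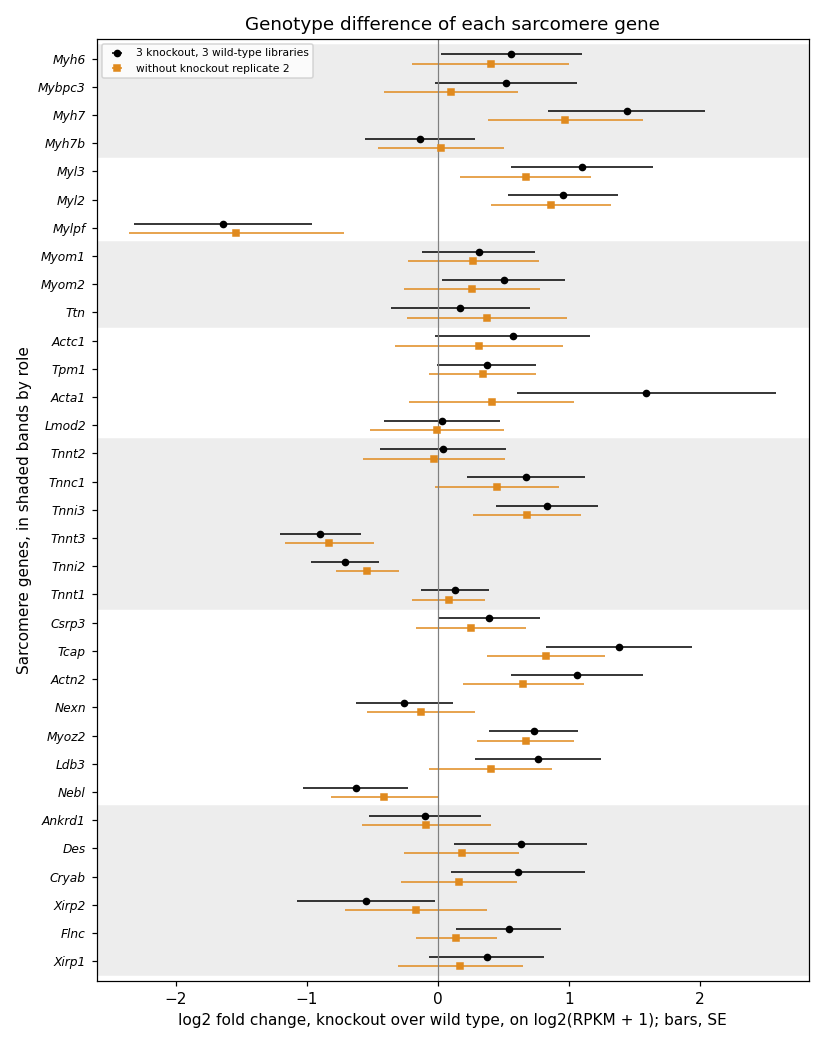
Difference between knockout and wild type for each sarcomere gene on the log2(RPKM + 1) scale, with bars of 1 SE and the same value without knockout replicate 2. The values run from −1.64 for Mylpf to 1.59 for Acta1, and 0 of the 33 pass an adjusted p of 0.05.

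Desmin, the intermediate filament that ties Z-discs together, was at 715, 2169 and 1000 RPKM in the knockout and 456, 968 and 951 RPKM in the wild type (Des, 0.63 ± 0.51, and 0.18 without knockout replicate 2). Cryab, the small heat shock protein that protects it, was at 689, 1954 and 873 RPKM against 411, 917 and 880 RPKM, and 19.0% of its 50-base stretches also occur in another gene, chiefly Hspb2. Flnc, the muscle filamin, was at 46.4, 130 and 68.0 RPKM against 33.8, 63.4 and 61.3 RPKM. In all 3 genes knockout replicate 2 was far above the other 5 libraries. Xirp2, an actin-binding repeat protein, was at 113, 50.3 and 115 RPKM against 55.5, 200 and 189 RPKM (−0.55 ± 0.53), and there knockout replicate 2 was the lowest of the 6, with −0.17 when it was left out. Xirp1 was at 31.9, 60.3 and 47.3 RPKM against 16.4, 50.5 and 49.3 RPKM. Ankrd1, a stretch-responsive ankyrin repeat protein, was at 864, 773 and 726 RPKM against 457, 1036 and 1262 RPKM (−0.10 ± 0.43).

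Relative to Actn2, all 6 members fixed as stress-responsive were lower in every knockout library. The differences in log2 ratio were −1.16 for Ankrd1, −1.62 for Xirp2, −0.68 for Xirp1, −0.67 for Csrp3, −0.52 for Flnc and −0.45 for Cryab, each with an exact permutation p of 0.1 (adjusted 0.13). Without knockout replicate 2 they were −0.74 for Ankrd1, −0.82 for Xirp2 and −0.41 for Csrp3. The same held for 16 of the 27 members with a mean of at least 10 RPKM, these 6 included, and for 15.0% of all tested genes (0.108% were higher). The 6 ratios share their denominator, and the order is not particular to these 6 genes. With Tnnt2 as the denominator 0 of the 6 were lower in every knockout library, 1 of them (Csrp3) was higher, and 12 of 27 such members were higher in all against 3.41% of tested genes.

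The position of knockout replicate 2 within its group followed the GC content of the transcript. Over the 28 members with a mean of at least 10 RPKM, a cut chosen after the data were seen, its log2 deviation from knockout replicates 1 and 3 correlated with GC at Pearson 0.75 and Spearman 0.81, across genes that share the same libraries. Over 12706 tested genes the same values were 0.57 and 0.61. All 19 members with a GC of 50% or more were above 0 (median 0.79), and of the 9 members below 50%, 5 were below 0 (median −0.04). Tcap, at 61.3% GC, deviated by 1.67 and Acta1, at 57.0%, by 3.55. Xirp2 at 42.2%, Nebl at 40.1% and Nexn at 39.6% deviated by −1.17, −0.67 and −0.40.

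Wild-type replicate 1 behaved differently: all 28 members were below the other wild-type libraries (median −1.29), with correlations with GC of 0.19 and 0.21. Knockout replicates 1 and 3 also differed along GC, with Pearson −0.64 and Spearman −0.63 for replicate 1 against 3. The genotype difference had a median of 0.61 for the 19 members of higher GC and 0.03 for the 9 of lower GC, and 0.31 and −0.01 without knockout replicate 2. A correction of each library for GC left the members' median at 0.44 with 0 called.

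**Figure D5:**
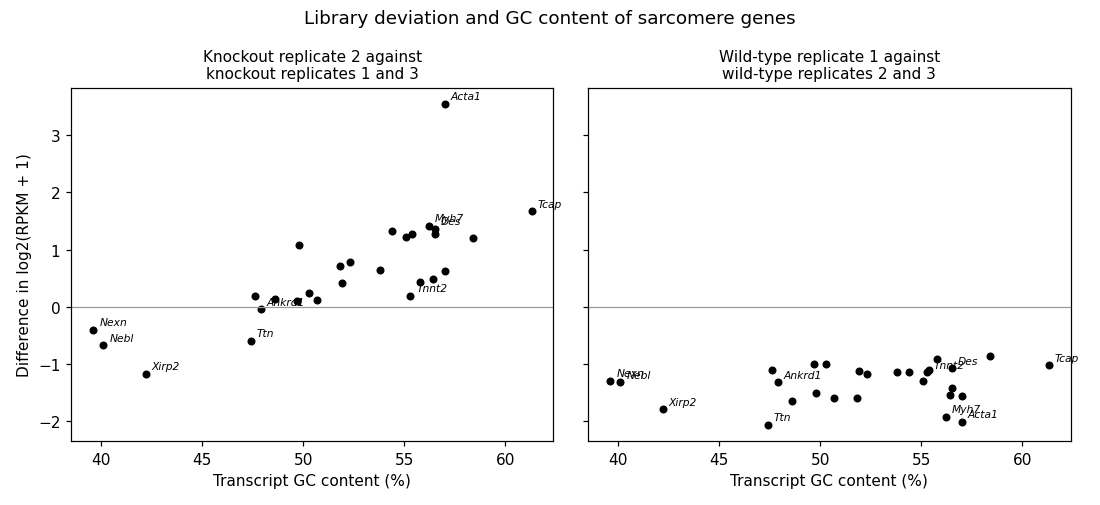
Log2 deviation of knockout replicate 2 from the other knockout libraries, and of wild-type replicate 1 from the other wild-type libraries, against GC percent of the transcript for 28 sarcomere genes. The knockout deviation is higher at higher GC, and all 28 wild-type deviations are below 0.

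The wider muscle programme was read through a list of 38 other sarcomere and Z-disc genes, of which 35 were tested. None was called by limma. At an unadjusted p under 0.05, 3 were higher, beside 2.45% of all tested genes, and 1 was lower, beside 5.96%. Values of 30 lay above 0, beside 40.7% of all tested genes, with a median of 0.51 (0.26 without knockout replicate 2). Of the 35, 3 had all knockout libraries above all wild-type ones (Ckm, Myot and Ankrd2), beside 6.61% of all tested genes. Ckm and Myot are the same genes as on the skeletal muscle marker list, so the 2 lists are not independent. Only Pdlim3 had all of them below, beside 11.8%. Ckm, the muscle creatine kinase, was at 319, 1005 and 441 RPKM against 91.7, 152 and 296 RPKM, a difference of 1.69 ± 0.53 with an adjusted p of 0.454. Myot, a Z-disc crosslinker, was at 7.25, 15.9 and 6.15 RPKM against 1.25, 3.57 and 6.02 RPKM (1.26 ± 0.46). Ankrd2, the skeletal relative of Ankrd1, was at 1.72, 13.9 and 1.92 RPKM against 0.24, 1.27 and 1.16 RPKM (1.43 ± 0.61, and 0.63 without knockout replicate 2), and was named after its values were seen. Pdlim3, an alpha-actinin partner also found in smooth muscle, was at 26.4, 22.3 and 30.0 RPKM against 35.1, 40.6 and 35.96 RPKM (−0.50 ± 0.19).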

How the data were processed

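Infarct RNA of 3 Irf3 knockout and 3 wild-type libraries was measured by RNA-seq. The authors deposited RPKM values rounded to 2 decimals for 12969 genes. Reads went through STAR 2.3.0, HTSeq 0.6.0, edgeR 3.8.6, SAMtools 0.1.18.0 and Picard 1.100 on NCBIM37 (mm9), with no order or role given, per the submitters' processing notes. How strand and multi-mapping reads were treated, and which genes were filtered out, is not given in these sources. Names split over 2 cells in 5 lines were repaired.

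Depth (14.8 to 61.9 M reads) was computed from the steps between low RPKM values. The test was limma 3.58.1 (R 4.3.3, eBayes with trend, two-sided) on log2(RPKM + 1) for genes averaging 1 RPKM or more, adjusted by Benjamini-Hochberg over 12913 genes at 0.05. This scale understates changes of low genes. Ratios within a library used a pseudocount of 0.1 and an exact permutation test in SciPy 1.17.1. Of 16 ratios planned, 13 were run. The fit was tested on simulated data.

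The members, lists and tests were chosen with earlier results of these data known. Genes named were all members, Irf3, the 3 genes of each list with the smallest p, and others said to be chosen after their values were seen. The GC correction, the cut at 10 RPKM, the host microRNA rows and the chromosome count were added after the data were seen. GC and hairpin positions came from GENCODE M21, and loci, promoters and mature microRNAs from RefSeq, both on GRCm38, which is not the authors' build. Alternatives were another pseudocount, filter, scaling, trend, sample weights, a replicate block and each library left out. The main fit did not pair samples by replicate number.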

Additional observations from a re-analysis of the deposited data

How the results depend on the processing

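The 33 members stayed at 0 called in limma with a pseudocount of 0.1, no filter, a filter of 5 RPKM, median-of-ratios scaling, no trend, the GC correction (added after the data were seen) and each library left out, and their median stayed between 0.04 and 0.68 when 1 library was left out. Sample weights were 0.103 for knockout replicate 2, 6.36 for knockout replicate 3 and 4.40 for wild-type replicate 2. They called 7 members higher (Myh7, Myl2, Myl3, Tnni3, Actn2, Tcap and Myoz2), beside 9.36% of all tested genes. They called 3 lower (Tnni2, Tnnt3 and Nebl), beside 13.6%. At an unadjusted p under 0.05 in limma there were 7 and 5. The members' median fell to 0.11, with 21 above 0. That setting turned Tnnt2 to −0.21, Lmod2 to −0.39, Xirp1 to −0.04 and Cryab to −0.01. A replicate block in limma called 1 higher (Myh7, adjusted p 0.0118) and 1 lower (Mylpf, adjusted p 0.00598). At that adjusted threshold 63 of all tested genes were called higher and 187 lower. With the block 6 members were higher at an unadjusted p under 0.05. In deviations from the group mean, same-numbered libraries correlated at 0.13, −0.10 and −0.10, and differently numbered ones at −0.21 to 0.19. With 3 libraries per group these values cannot exclude a pairing by number. A sign-flip test on 3 pairs allows a p of no less than 0.25. A filter of 5 RPKM left 1 member lower at an unadjusted p under 0.05, and no trend gave 5 higher. Scaling turned Ankrd1 to 0.03 and left 0 members with all knockout libraries above. The GC correction turned Tnnt2 to −0.04, Nexn to 0.02 and Ankrd1 to 0.11. With 1 library left out, members at an unadjusted p under 0.05 numbered 0 to 7 higher and 1 to 5 lower. No share over all tested genes is given for the unadjusted counts of this paragraph, so they say nothing particular about the members. Members without overlap numbered 1 to 12 above (9 without knockout replicate 1, beside 13.3% of all tested genes, and 12 without wild-type replicate 3, beside 13.4%) and 3 to 10 below (10 without wild-type replicate 1, beside 20%). Without knockout replicate 2, Myh7b turned to 0.02, Tnnt2 to −0.03 and Lmod2 to −0.01, and without knockout replicate 3 Ttn turned to −0.02. Without wild-type replicate 1, Ttn turned to −0.51, Myom1 to −0.22, Myom2 to −0.03, Tnnt2 to −0.34, Lmod2 to −0.51 and Xirp1 to −0.14. Without wild-type replicate 2, Tnnt1 turned to −0.02, Ankrd1 to 0.05 and the ratio of Tnnt1 to Tnnt2 from 0.17 to −0.15. Without wild-type replicate 3, Myh7b turned to 0.27, Nexn to 0.02 and Ankrd1 to 0.19. Over all 6 such settings the range was −0.65 to 0.27 for Myh7b, −0.51 to 0.60 for Ttn, −0.22 to 0.68 for Myom1, −0.03 to 0.97 for Myom2, −0.34 to 0.31 for Tnnt2, −0.02 to 0.42 for Tnnt1, −0.51 to 0.38 for Lmod2, −0.69 to 0.02 for Nexn, −0.14 to 0.64 for Xirp1, −0.54 to 0.19 for Ankrd1 and −0.15 to 0.37 for the ratio of Tnnt1 to Tnnt2. The cause of these changes was not tested. The 3 planned ratios with Tnni1, Myl4 or Myl7 were not run. Depth limits the values of Mylpf, Mir208a and Mir208b, which rest on under 10 reads in at least 1 library each.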

Other observations

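For the lists below, the shares over all tested genes were 2.45% higher and 5.96% lower at an unadjusted p under 0.05, with 40.7% above 0. All knockout libraries lay above all wild-type ones for 6.61% of tested genes and below for 11.8%. Of 20 genes of calcium handling and excitation, 13 lay above 0 and 0 were called by limma. At an unadjusted p under 0.05, 1 was higher, and the median was 0.28 (0.18 without knockout replicate 2). Tmem38a, a cation channel of the sarcoplasmic reticulum, was at 113, 243 and 141 RPKM in the knockout and 43.6, 77.7 and 125 RPKM in the wild type (1.05 ± 0.42, adjusted p 0.556 in limma). Hrc, a calcium-binding protein of the same store, was at 0.77 ± 0.40, and Jph2, which ties that store to the surface membrane, at 0.80 ± 0.42 (0.41 without knockout replicate 2).

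Of 15 cardiomyocyte transcription factors, 9 lay above 0, 0 were called by limma, and 1 was higher and 1 lower at an unadjusted p under 0.05, with a median of 0.29 (0.08 without knockout replicate 2). Hand2 was at 13.9, 31.8 and 19.95 RPKM in the knockout and 12.3, 10.6 and 12.5 RPKM in the wild type, with no overlap (0.77 ± 0.29, and 0.47 without knockout replicate 2). Tbx20 was at −0.54 ± 0.23 and Esrra at 0.60 ± 0.36 (0.20 without knockout replicate 2). Among 7 tested atrial and natriuretic genes 5 lay above 0, 0 were called by limma and 1 was lower at an unadjusted p under 0.05. Nppa, the atrial natriuretic peptide, was at 638, 1283 and 712 RPKM against 320, 584 and 696 RPKM (0.72 ± 0.42). Dkk3 was at −0.67 ± 0.26 with no overlap, and Tbx5 at 0.35 ± 0.24. Without knockout replicate 2 these were 0.41 for Nppa, −0.43 for Dkk3 and 0.20 for Tbx5. Of 12 smooth muscle markers, 5 lay above 0, 0 were called by limma and 1 was lower at an unadjusted p under 0.05, with Myl9 at −0.63 ± 0.22, Tagln at −0.61 ± 0.30 and Synpo2 at 0.67 ± 0.35 (0.39 without knockout replicate 2). Endothelial markers (8 of 8) had 0 called by limma, 0 at an unadjusted p under 0.05 and a median of −0.13 (0.05 without knockout replicate 2), with Tek, Emcn and Pecam1 lowest by p.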
